A study of Homo sapiens with 6 samples.

Results

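The RB family (RB1, RBL1 and RBL2), the subunits of the MuvB core (LIN9, LIN37, LIN52, LIN54 and RBBP4) and the activators MYBL2 and FOXM1 are genes through which cell cycle transcription is switched off and on. They were chosen by name and not by a rule on their values, but with earlier results of these data known. These are 10 of the 21447 genes with estimated counts, and all 10 passed the filter on low counts. Bulk RNA-seq had been done on U-2 OS cells, a human osteosarcoma line, 24 h after 4 Gy of ionizing radiation (IR) and on untreated cells of the same line, with 3 libraries in each group. Both groups were grown in the same medium. The study describes its samples as distinct, and P values measure only the spread between these samples. The comparison asks which genes changed after DNA damage.

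In background, RB family proteins, also called pocket proteins, bind E2F transcription factors and hold genes of S phase off until cyclin-dependent kinases phosphorylate them. RBL1 and RBL2 also join the MuvB core and a repressive E2F to form the DREAM complex, which keeps cell cycle genes off in resting cells and in cells arrested after DNA damage. In dividing cells the same core leaves the pocket proteins, binds MYBL2 and then recruits FOXM1 to switch on the genes of G2 and mitosis.

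The libraries held 18573309 to 22953834 estimated counts, except for IR replicate 3 with 45308792. Levels of a gene are given as CPM, counts over a library size scaled by TMM, in the order of replicates 1, 2 and 3 of a group. The levels of different genes are ranked only in TPM, which also divides by an estimated effective length. CDKN1A, the inhibitor of cyclin-dependent kinases induced by p53, had 122, 124 and 120 CPM in the untreated libraries, against 322, 341 and 390 CPM in the IR libraries. Of 8 marker genes of the osteoblast lineage, 4 (COL1A1, SPARC, RUNX2 and ALPL) had a mean of at least 1 TPM and SP7 was at 0, with a summed level of 2285 to 2651 TPM in untreated and 2287 to 2589 TPM in IR libraries. All 4 mesenchymal markers reached that level, as did 4 of 5 epithelial markers, 1 of 5 blood markers and 1 of 4 endothelial markers. The epithelial markers summed to 320 to 353 TPM in untreated and 378 to 467 TPM in IR libraries, and their part in the results below was not tested. In bulk samples, fewer cells of a kind and less RNA per cell cannot be told apart.

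The sequences shown are those before the start sites of the called members with a match to a searched cell cycle element, and an exon by which FOXM1 isoforms differ. RefSeq windows (GRCh38.p14) of 250 bases before to 50 after the start were at hand for 9 of the 10 genes, all but FOXM1. That of RB1 lies 172699 bases from the start of its canonical transcript and was left out, and that of LIN9 lies 339 bases from it. The windows were searched on both strands for 4 forms of the E2F element, the first being TTCCCGC, the second being TTCGCGC, the third being TTGCCGC and the last being TTGGCGC. They were also searched for the CHR element through which LIN54 holds DNA, written as TTTGAA with TTCGAA counted too, and for the forkhead element, written as GTAAACA with ATAAACA counted too. An E2F element was found in 4 of the 8 windows, those of RBL1, LIN9, LIN52 and RBBP4, against 13.0% of all 35116 windows of 300 bases. The 2 matches of RBBP4 overlap each other. Other forms of the E2F element were not searched, so a window without a match may still hold one. The MYBL2 and LIN54 windows, counted as without an E2F match, hold TTGGCGG before the start, which differs from the last form only in the final base. A CHR element was found in 2 of the 8, those of RBL2 and LIN54, against 16.4%, and a forkhead element in 0 of the 8, against 7.4%. The 120 bases before the start are shown for RBL1, LIN9 and LIN54, with matches in capitals. The 2 E2F matches of RBL1 begin 25 and 15 bases before the start, that of LIN9 7 bases before it, and the CHR match of LIN54 100 bases before it. They lie at chr20:37095998-37096117, chr1:226309504-226309623 and chr4:83010824-83010943, all on the reverse strand.
RBL1: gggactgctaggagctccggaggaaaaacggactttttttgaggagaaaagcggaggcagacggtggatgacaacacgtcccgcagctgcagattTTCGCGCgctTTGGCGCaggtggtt
LIN9: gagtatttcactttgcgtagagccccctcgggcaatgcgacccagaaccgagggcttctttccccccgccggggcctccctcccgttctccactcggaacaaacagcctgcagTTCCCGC
LIN54: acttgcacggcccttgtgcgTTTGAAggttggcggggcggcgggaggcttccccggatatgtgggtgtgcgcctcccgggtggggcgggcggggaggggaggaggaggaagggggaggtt

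After IR, 6 of the 10 genes were lower, 0 were higher and 4 did not pass the test (quasi-likelihood test of edgeR, adjusted P under 0.05 over 14323 tested genes). The called genes, from the lowest log2 fold change up, were RBL1, LIN54, LIN9, RB1, FOXM1 and MYBL2. Differences between these genes were not tested, and the order changed with the GC trend of each library removed, when MYBL2 (−0.47) lay beyond LIN54 (−0.43) and FOXM1 (−0.30) beyond LIN9 (−0.19) and RB1 (−0.16). RBL2, RBBP4, LIN52 and LIN37 were not called. Over all tested genes 30.1% were called, 14.5% lower and 15.5% higher. At an unadjusted P under 0.05, 8 members were lower and 0 higher. The share of all tested genes at that threshold was not computed, so this count has no background here. Untreated and IR libraries did not overlap in 8 of the 10 genes, each time with the IR libraries lower, against 47.1% of all tested genes in either direction. The median log2 fold change of the members was −0.22, against 0.01 over all tested genes.

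**Figure D1:**
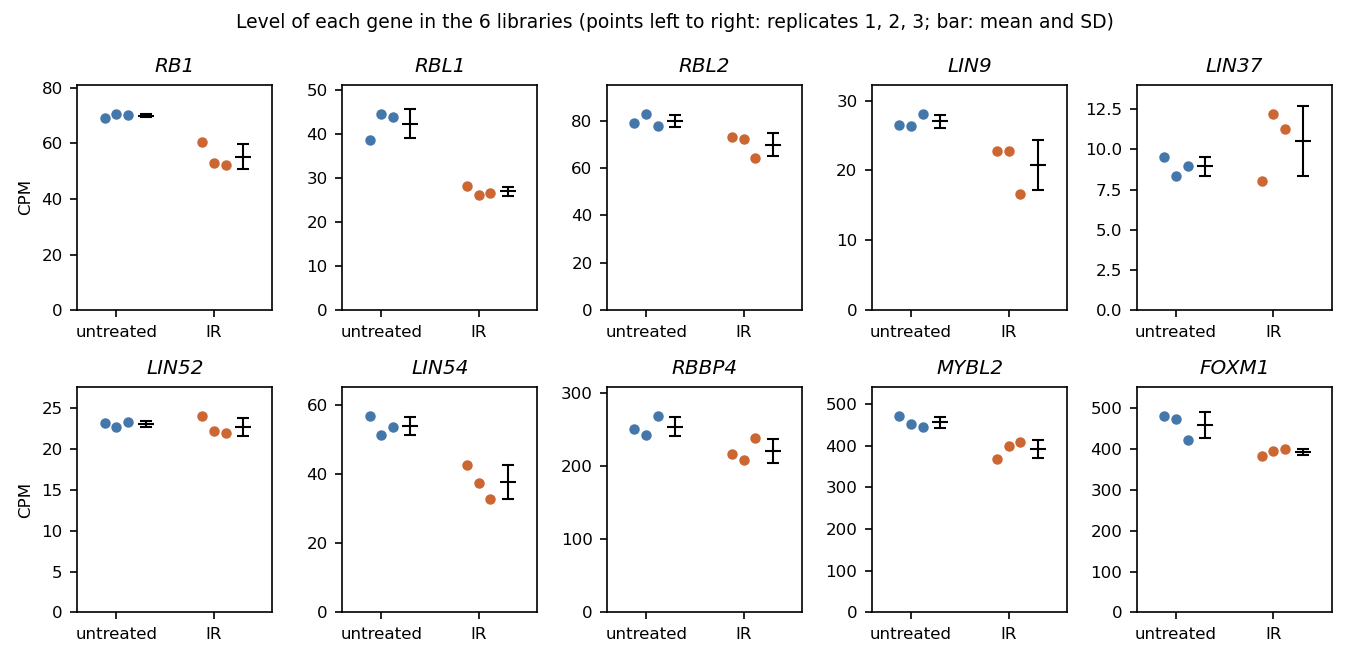
CPM of the 10 genes (vertical axes, from 0) in the 3 untreated and the 3 IR libraries (points), with the mean and SD of each group beside them. All IR libraries sit below all untreated libraries in 8 panels, and the groups overlap for LIN37 and LIN52.

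Among the pocket proteins, RBL1 (p107), the member that is itself made mostly in cycling cells, fell. On chromosome 20 of GRCh38 from 36996349 to 37095997, it had 38.6, 44.6 and 43.9 CPM in the untreated libraries, against 28.3, 26.1 and 26.6 CPM in the IR libraries. The IR libraries lay close to each other and far below the lowest untreated library. The log2 fold change was −0.65 (95% confidence interval −0.83 to −0.47 with a standard error of 0.08, adjusted P = 7.08e-04 by edgeR), and 2.9% of all tested genes had a lower one. RBL1 was called in all 15 alternative analyses, at log2 fold changes of −1.28 to −0.50.

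RB1, the retinoblastoma tumour suppressor, had 69.2, 70.5 and 70.2 CPM in the untreated libraries, against 60.4, 53.0 and 52.2 CPM in the IR libraries. It lies on chromosome 13 from 48303744 to 48599436. The untreated libraries hardly differed, and all IR libraries were lower, with a log2 fold change of −0.34 (95% confidence interval −0.51 to −0.18 with a standard error of 0.07, adjusted P = 0.00745 by edgeR). After the dependence of counts on GC content was removed from each library, the log2 fold change of RB1 was −0.16 (adjusted P = 0.0666 by edgeR), and with an offset for effective length its adjusted P was 0.0824 by edgeR. Weighted by TPM, RB1 transcripts had 37.3% GC.

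RBL2 (p130), the pocket protein of resting cells, had 79.2, 82.9 and 77.9 CPM in the untreated libraries, against 73.0, 72.2 and 64.4 CPM in the IR libraries. The groups did not overlap, but the gene, on chromosome 16 from 53433977 to 53491648, did not pass the test. Its log2 fold change was −0.20 (95% confidence interval −0.36 to −0.04 with a standard error of 0.07, adjusted P = 0.0596 by edgeR). Without IR replicate 1 it was −0.25 and called (adjusted P = 0.0390 by edgeR). RBL2 shares 609 exon bases with AKTIP on the opposite strand, and whether counting used strand is not given in the sources used here.

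The make-up of pocket protein mRNA shifted away from RBL1. In TPM, RBL1 was at 26.7%, 29.2% and 34.0% of the summed RB1, RBL1 and RBL2 mRNA in untreated replicates 1, 2 and 3, and at 18.8%, 16.6% and 15.9% in IR replicates 1, 2 and 3. Its share was 30.0% ± 3.72 in untreated and 17.1% ± 1.51 in IR libraries (SD, n = 3 each). The share of RBL2 was 32.7% ± 2.87 in untreated and 41.2% ± 2.94 in IR libraries, and that of RB1 37.3% ± 0.89 and 41.7% ± 3.72 (SD, n = 3 each). For each of the 3 genes the groups did not overlap (P = 0.1 in an exact two-sided permutation test, which cannot go lower with 3 libraries a group). The shares of a library make up a whole, so these are not 3 separate results. In TPM itself, RB1 had a mean of 28.4 in untreated and 22.25 in IR libraries, and RBL2 24.8 and 21.9. The log2 ratio of RBL2 to RBL1 in TPM was 0.13 ± 0.31 in untreated and 1.27 ± 0.13 in IR libraries (SD, n = 3 each), a difference of 1.14. In CPM, where a ratio of genes of unequal length gives no order of levels, the same log2 ratio differed by 0.45 between the groups, with all 3 IR libraries higher.

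**Figure D2:**
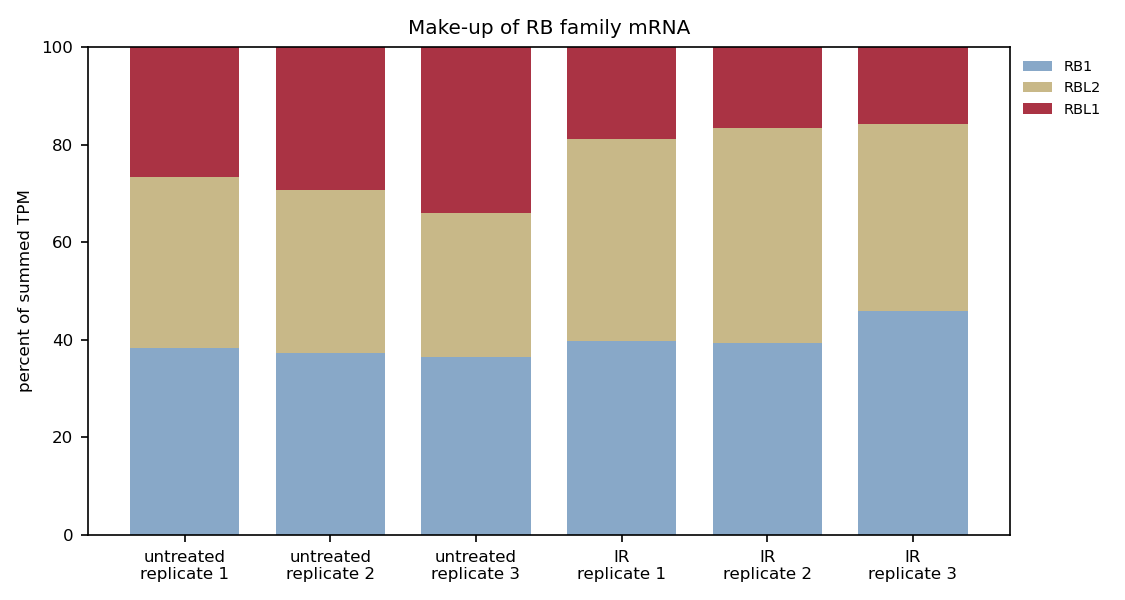
Share of RB1, RBL2 and RBL1 in their summed TPM (vertical axis, percent) in each of the 6 libraries (bars). The RBL1 segment is between 26.7% and 34.0% in untreated and between 15.9% and 18.8% in IR libraries.

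The larger difference in TPM goes with the transcripts to which RBL1 counts were assigned. The canonical RBL1-202, with 22 exons and 5686 bases, took 73.2%, 72.1% and 78.1% of the estimated counts of RBL1 in the untreated libraries, against 83.7%, 95.4% and 96.8% in the IR libraries. The short RBL1-203, of 763 bases, took 6.08%, 5.25% and 12.1% in untreated and 2.78%, 1.08% and 1.38% in IR libraries. The groups overlapped for RBL1-201, of 3225 bases, which took 9.87% to 22.7% in untreated and 1.61% to 13.6% in IR libraries. The mean effective length of RBL1 was thus 2395 bases in untreated and 3712 bases in IR libraries, and with an offset for it the log2 fold change was −1.28 (adjusted P = 0.00472 by edgeR). Transcript usage of RBL1 did not pass the test (diffSpliceDGE of edgeR with Simes P values, adjusted P = 1.00).

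Of the MuvB core, LIN54, the subunit that binds DNA, and LIN9, the scaffold, fell, while LIN37 and LIN52 overlapped between groups. LIN54 had 56.8, 51.5 and 53.6 CPM in the untreated libraries, against 42.7, 37.3 and 33.0 CPM in the IR libraries. All IR libraries were well below the untreated ones, and the log2 fold change was −0.52 (95% confidence interval −0.74 to −0.31 with a standard error of 0.10, adjusted P = 0.00363 by edgeR), with 5.2% of all tested genes lower. LIN54, on chromosome 4 from 82909973 to 83012926, was called in all 15 alternative analyses, at log2 fold changes of −0.66 to −0.43.

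LIN9 had 26.6, 26.4 and 28.1 CPM in the untreated libraries, against 22.9, 22.8 and 16.6 CPM in the IR libraries. IR replicate 3 was the lowest, and the other 2 IR libraries were also below all untreated ones. The log2 fold change of LIN9, on chromosome 1 from 226231149 to 226309869, was −0.40 (95% confidence interval −0.66 to −0.13 with a standard error of 0.12, adjusted P = 0.0324 by edgeR). It was −0.19 with the GC trend removed (adjusted P = 0.187 by edgeR), and was not called without untreated replicate 1, 2 or 3 (adjusted P = 0.0755, 0.0742 and 0.0999 by edgeR) or with the length offset (0.106).

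RBBP4, a histone-binding protein that MuvB shares with many chromatin complexes, had 250, 242 and 268 CPM in the untreated libraries, against 216, 208 and 239 CPM in the IR libraries. The highest IR library lay just under the lowest untreated one. The log2 fold change of RBBP4, on chromosome 1 from 32651142 to 32686211, was −0.20 (95% confidence interval −0.36 to −0.04 with a standard error of 0.07, adjusted P = 0.0643 by edgeR). It was called without IR replicate 3 (−0.27, adjusted P = 0.0109 by edgeR) and by the DESeq2 Wald test (adjusted P = 0.0337). Of its estimated counts, 27.7% ± 1.69 in untreated and 28.8% ± 3.45 in IR libraries (SD, n = 3 each) fell on RBBP4-214, which is annotated as a target of nonsense-mediated decay. RBBP4 shares 2160 exon bases with SYNC on the opposite strand.

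LIN52, the subunit whose phosphorylation brings the pocket proteins to the core, had 23.2, 22.6 and 23.3 CPM in the untreated libraries, against 24.0, 22.2 and 22.0 CPM in the IR libraries. The IR libraries lay on both sides of the untreated ones. Its log2 fold change was −0.02 (95% confidence interval −0.19 to 0.15, adjusted P = 0.850 by edgeR). The value was 0.08 with the GC trend removed. LIN52 lies on chromosome 14 from 74084956 to 74201493.

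LIN37, needed for repression by DREAM but not for activation, had 9.50, 8.34 and 8.99 CPM in the untreated libraries, against 8.04, 12.2 and 11.2 CPM in the IR libraries. IR replicate 1 was the lowest of all 6 libraries and the other 2 IR libraries the highest. The log2 fold change was 0.23 (95% confidence interval −0.11 to 0.58, adjusted P = 0.277 by edgeR), or −0.02 with the GC trend removed. LIN37, on chromosome 19 from 35748361 to 35754519, had the lowest counts of the 10 genes. It shares 752 exon bases on the same strand with ENSG00000188223, so that reads could have been split between them, and this gene held between 5 and 61 counts in a library.

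Both activators fell. MYBL2 (B-Myb), on chromosome 20 from 43667019 to 43716495, had 470, 452 and 445 CPM in the untreated libraries, against 367, 400 and 409 CPM in the IR libraries. The groups did not overlap in CPM but did in TPM, where IR replicate 3 (182 TPM) lay among the untreated libraries (174 to 187 TPM). The log2 fold change was −0.22 (95% confidence interval −0.36 to −0.07 with a standard error of 0.07, adjusted P = 0.0310 by edgeR). It was −0.47 with the GC trend removed (adjusted P = 4.42e-04 by edgeR) and −0.15 with the length offset (adjusted P = 0.328 by edgeR). MYBL2 transcripts had 60.1% GC, the highest of the 10 genes. MYBL2 was not called without untreated replicate 1, 2 or 3 or IR replicate 1 or 2 (adjusted P = 0.132, 0.0868, 0.0578, 0.0612 and 0.0635 by edgeR).

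FOXM1, the forkhead activator of mitotic genes, had 480, 472 and 422 CPM in the untreated libraries, against 384, 395 and 399 CPM in the IR libraries. The IR libraries were close together and all below the lowest untreated one. The log2 fold change was −0.22 (95% confidence interval −0.37 to −0.07 with a standard error of 0.07, adjusted P = 0.0327 by edgeR). It was not called without untreated replicate 1 or 2 or IR replicate 1 or 2 (adjusted P = 0.145, 0.121, 0.0558 and 0.0764 by edgeR) or with the length offset (0.0955), and was at −0.30 with the GC trend removed (adjusted P = 0.00361 by edgeR). FOXM1 shares 782 exon bases with ITFG2 on the opposite strand. The log2 ratio of FOXM1 to MYBL2 in TPM was 0.15 ± 0.05 in untreated and 0.07 ± 0.14 in IR libraries (SD, n = 3 each), with overlap between the groups.

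**Figure D3:**
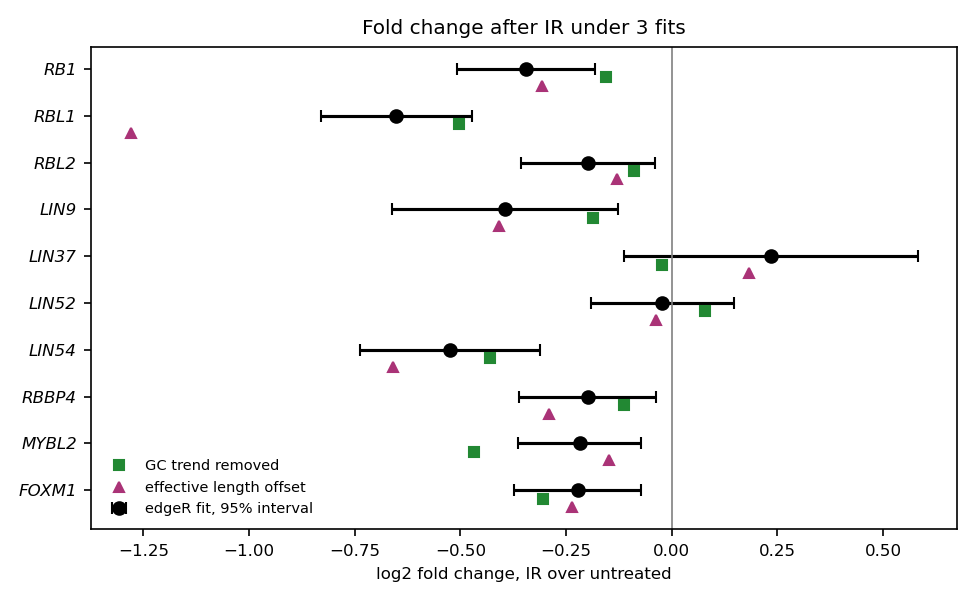
Log2 fold change of IR over untreated (horizontal axis) of the 10 genes in edgeR's fit (circles, bars for the 95% confidence interval), with the GC trend removed (squares) and with an offset for effective length (triangles). RBL1 and LIN54 stay below −0.42 in all 3, and the length offset moves RBL1 to −1.28.

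Per effective length, the activators and RBBP4 stood far above the rest. Effective length can differ from length. That of MYBL2 averaged 3227 bases in untreated libraries, while its 2 transcripts have 2668 and 2704 bases. The effective length of RBBP4 averaged 1691 bases in untreated libraries, while its canonical RBBP4-202 has 7883 bases. The places of MYBL2 and RBBP4 beside FOXM1, and the ratio of MYBL2 to FOXM1, may therefore depend on these estimates. Untreated cells had 200 ± 4.24 TPM of FOXM1, 191 ± 11.6 TPM of RBBP4 and 180 ± 6.21 TPM of MYBL2 (SD, n = 3 each), and neighbours among these overlapped. LIN54 followed at 39.3 ± 2.88 TPM, then RB1 at 28.4 ± 0.967 TPM (SD, n = 3 each), each apart from the next. RBL2 (24.8 ± 0.836 TPM), RBL1 (22.9 ± 4.16 TPM) and LIN9 (19.3 ± 0.239 TPM) each overlapped with their neighbour, as did LIN37 (12.3 ± 0.945 TPM) and LIN52 (12.1 ± 0.818 TPM; SD, n = 3 each). After IR the order of the means was the same for the first and the fourth to sixth genes. LIN54 (24.03 ± 2.925 TPM) then overlapped with RB1 (22.25 ± 3.399 TPM), and RB1 with RBL2 (21.89 ± 1.561 TPM; SD, n = 3 each). MYBL2 (158 ± 21.6 TPM) and RBBP4 (152 ± 14.8 TPM) overlapped in reverse order. RBL1, at 9.13 ± 1.45 TPM, was the lowest of the 10, overlapping with LIN52 at 11.4 ± 0.967 TPM (SD, n = 3 each).

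FOXM1 is transcribed from chromosome 12 at chr12:2857680-2877174 on the reverse strand. Its isoforms differ by 2 short exons and also in the length of the first exon. FOXM1-201 contains both short exons, the canonical FOXM1-202 contains only the one of 45 bases, and FOXM1-203 and FOXM1-210 contain neither. In background, these are the isoforms known as FOXM1a, FOXM1c and FOXM1b, of which the first is held to be inactive as an activator. The coding sequences have 2403, 2289 and 2244 bases. The first exon has 67 bases in FOXM1-201, 255 in FOXM1-202, 121 in FOXM1-203 and 236 in FOXM1-210, which also differs at the ends of other exons. Counts assigned to FOXM1-202 therefore do not give the use of the 45-base exon alone. That exon lies at chr12:2865355-2865399 and is shown whole on the strand of the gene, since it is among the differences of FOXM1-202 from FOXM1-203 and FOXM1-210.
45-base exon: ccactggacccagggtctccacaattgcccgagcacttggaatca

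All 10 FOXM1 transcripts in the files were kept by the filter, and the 4 above held 90.8% ± 2.51 of the counts of the gene in untreated and 91.7% ± 1.05 in IR libraries (SD, n = 3 each). FOXM1-201 led in every library, with 344, 371 and 287 CPM in the untreated libraries, against 266, 272 and 208 CPM in the IR libraries. It took 76.7%, 85.6% and 77.4% of the counts of the 4 transcripts in the untreated and 75.7%, 74.4% and 53.4% in the IR libraries. The groups thus came within 1 percentage point of each other, and IR replicate 3 lay far below the other 2 IR libraries.

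FOXM1-202 was listed at 0 in all 3 untreated libraries, and the IR libraries held 16.4, 9.07 and 41.2 CPM of it. These were 335, 165 and 1771 estimated counts, or 4.66%, 2.48% and 10.6% of the 4 transcripts. FOXM1-203 and FOXM1-210 together took 23.3%, 14.4% and 22.6% in untreated and 19.7%, 23.1% and 36.0% in IR libraries, with overlap. IR replicate 3, the library of greatest depth, was the lowest in FOXM1-201 and the highest in both of the others.

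Transcript usage of FOXM1 was called (Simes P values from diffSpliceDGE of edgeR, adjusted P = 1.18e-10), as was that of 2.73% of 10661 tested genes. The call came from FOXM1-202 alone, which passed the filter on low counts only through the IR libraries and so had to differ, and it adds nothing to the values above. Without that transcript the adjusted P was 1.00, and under a filter of at least 10 counts in each library, which also removes it, the adjusted P was 0.874 by the same edgeR test. An estimate of 0 can also arise from how reads are divided between transcripts that share nearly all their sequence, which was not tested.

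In level, 0 of the 10 FOXM1 transcripts were called by the quasi-likelihood test of edgeR, as were 0 of 56720 transcripts (0%) in all. An unadjusted P under 0.05 was found for 2 of the 10 and 6084 of all 56720. Of these 2, 1 was FOXM1-202, which had to differ for the reason given above. With FOXM1-202 left out, 1 of 9 FOXM1 transcripts and 6083 of 56719 in all had an unadjusted P under 0.05. The DESeq2 Wald test called 3002 of all and 1 of the 10, which was again FOXM1-202, kept by the filter only through the IR libraries. FOXM1-201 had a log2 fold change of −0.43 (with a standard error of 0.14 and an adjusted P of 0.390 by edgeR). The 6 remaining transcripts, FOXM1-204 to FOXM1-209, were short or carried a retained intron, and each stayed below 19 CPM in every library.

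Transcript usage was tested in 8 of the other 9 genes, RB1 having 1 transcript left after filtering, and 0 were called by edgeR at an adjusted P under 0.05, nor at an unadjusted Simes P under 0.05. Each of the 6 genes RB1, RBL2, LIN9, LIN37, LIN52 and LIN54 had overlapping groups in the share of its leading transcript. RB1-201 took 98.4% ± 0.55 in untreated and 98.4% ± 2.38 in IR libraries, LIN52-205 94.6% ± 2.36 and 94.2% ± 1.39, and LIN9-206 87.2% ± 3.27 and 86.4% ± 5.84 (SD, n = 3 each). RBL2-201 took 82.7% ± 4.52 and 86.0% ± 5.41, and LIN37-201 58.5% ± 2.34 and 58.0% ± 4.88 (SD, n = 3 each). LIN54 was divided between LIN54-203, with 39.2% ± 12.83 and 41.1% ± 8.35, and LIN54-204, with 38.2% ± 7.73 and 33.9% ± 15.79 (SD, n = 3 each). MYBL2-201 took 95.3% ± 0.15 of the estimated counts of MYBL2 in untreated and 95.5% ± 0.15 in IR libraries (SD, n = 3 each), also with overlap. The shares of RBBP4-206 and RBBP4-202 did not overlap between groups, the first at 30.9% ± 1.28 in untreated and 24.8% ± 2.27 in IR libraries and the second at 33.1% ± 1.76 and 38.0% ± 2.88 (SD, n = 3 each). Both are protein-coding, with 1170 and 1275 coding bases.

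The genes around these 10 were taken from lists of the pathway, chosen with earlier results of these data known. Some genes stand on several lists, so the counts of different lists are not independent of each other. Over all tested genes, the DESeq2 Wald test called 2095 lower and 2141 higher. The share of all tested genes at an unadjusted P under 0.05 was not computed. The 2080 genes lower in all became 875 with the length offset and 1624 with the replicate block. They were 1287 and 1244 without untreated replicates 1 and 2, and 2284 and 1423 without IR replicates 1 and 2. Of the cyclins, their kinases and the inhibitors that set pocket protein phosphorylation, 4 of 15 tested genes were higher and 5 lower, against 15.5% higher and 14.5% lower of all tested genes, with a median log2 fold change of −0.01. CDKN1A rose by 1.52 on the log2 scale (with a standard error of 0.08 and an adjusted P of 2.82e-05 by edgeR). The D-type cyclins CCND2 and CCND1, which start phosphorylation of RB1, rose by 0.63 and 0.52 (adjusted P = 2.91e-04 and 9.16e-04 by edgeR). CDKN1C, at low counts, was also higher, and CDK6, CCNE2, CCNA2, CDKN1B and CDKN2C were lower. CDKN2A was listed at 0 in all 6 libraries.

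Among the E2F and DP partners of the pocket proteins, 2 of 10 were lower and 0 higher, against 14.5% lower of all tested genes, with a median of −0.16. Without untreated replicate 1 or with the length offset 1 was lower, and with the GC trend removed 3 were lower and 1 higher. E2F8, an atypical repressor of the family, had 23.2, 22.2 and 21.2 CPM in the untreated libraries, against 12.7, 12.4 and 11.4 CPM in the IR libraries, a log2 fold change of −0.87 (adjusted P = 2.91e-04 by edgeR). E2F2, an activator, had −0.37 (adjusted P = 0.0146 by edgeR). E2F4, the partner in DREAM, which was named after its value was seen, had 0.15 and was not called (adjusted P = 0.299 by edgeR). At an unadjusted P under 0.05, 3 of this list were lower and 0 higher, and the DESeq2 Wald test called 2 lower and 0 higher.

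Cofactors that pocket proteins and DREAM recruit or need had 4 of 10 genes lower and 0 higher, against 14.5% lower of all tested genes, with a median of −0.25. The count was 1 without untreated replicate 1, 2 without untreated replicate 2 or IR replicate 2 or with the length offset, and 7 by the DESeq2 Wald test. The histone demethylase KDM5A (−0.34), ARID4B (−0.39) and DYRK1A (−0.37), the kinase of LIN52, had the lowest P of these (adjusted P = 0.00886, 0.0170 and 0.0222 by edgeR), and the methyltransferase SUV39H1 was the other. Among regulators of FOXM1 and MYBL2 protein, 4 of 8 were lower and 0 higher, against 14.5% lower of all tested genes, with a median of −0.18. PLK1 and CCNF of this list are counted again among the late genes below. The count was 1 without untreated replicate 1 or 2 or IR replicate 2, and 2 with the replicate block or the length offset. SKP2, a subunit of an SCF ubiquitin ligase, had −0.46, CCNF, cyclin F, −0.30, and PLK1, a kinase that activates FOXM1, −0.24 (adjusted P = 0.00117, 0.0266 and 0.0153 by edgeR), and the kinase MELK was also lower. At an unadjusted P under 0.05, 1 gene of each of these lists was higher, and the DESeq2 Wald test called 0 higher in either.

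Of 7 paralogs, 2 were lower and 0 higher, against 14.5% lower of all tested genes, with a median of −0.39. The count was 1 without untreated replicate 1 or 2, without any of the 3 IR libraries or with the replicate block, and 4 with at least 10 counts in every library or by the likelihood ratio test of edgeR. MYBL1 (A-Myb) had 47.5, 48.8 and 44.6 CPM in the untreated libraries, against 33.1, 30.1 and 25.6 CPM in the IR libraries, a log2 fold change of −0.67 (adjusted P = 0.00131 by edgeR), and FOXO4 had −0.41 (adjusted P = 0.0496 by edgeR). At an unadjusted P under 0.05, 5 paralogs were lower and 0 higher, and the DESeq2 Wald test called 3 lower and 0 higher.

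Of 54 late genes that MYBL2 with MuvB and FOXM1 are known to activate, 41 were lower and 0 higher, where 14.5% of all tested genes were lower, with a median log2 fold change of −0.39. MKI67, the proliferation antigen Ki-67, had 706, 768 and 673 CPM in the untreated libraries, against 391, 346 and 269 CPM in the IR libraries, a log2 fold change of −1.10 (adjusted P = 4.20e-04 by edgeR). The mitotic kinesin KIF14 had −0.86 and the checkpoint kinase BUB1 −0.50 (adjusted P = 2.65e-04 and 6.12e-04 by edgeR). Not every gene of the list moved, and CCNB1 (−0.02), CDC20 (−0.10), BIRC5 (0.03) and UBE2C (0.02), all with roles in mitosis and chosen here after their values were seen, were among the 13 that were not called. At an unadjusted P under 0.05, 43 were lower and 0 higher, and the DESeq2 Wald test called 43 lower and 0 higher.

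Of 50 early E2F targets, 27 were lower and 0 higher, against 14.5% lower of all tested genes, with a median of −0.21. Without untreated replicate 1, 17 were lower. Beside E2F8, which is on this list too, WDR76 had −0.74 and RRM2, a subunit of ribonucleotide reductase, −0.51 (adjusted P = 3.18e-04 and 7.63e-04 by edgeR). At an unadjusted P under 0.05, 31 were lower and 2 higher, and the DESeq2 Wald test called 27 lower and 1 higher. With the length offset 10 were lower, against 25 of the late list and 875 of all tested genes.

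**Figure D4:**
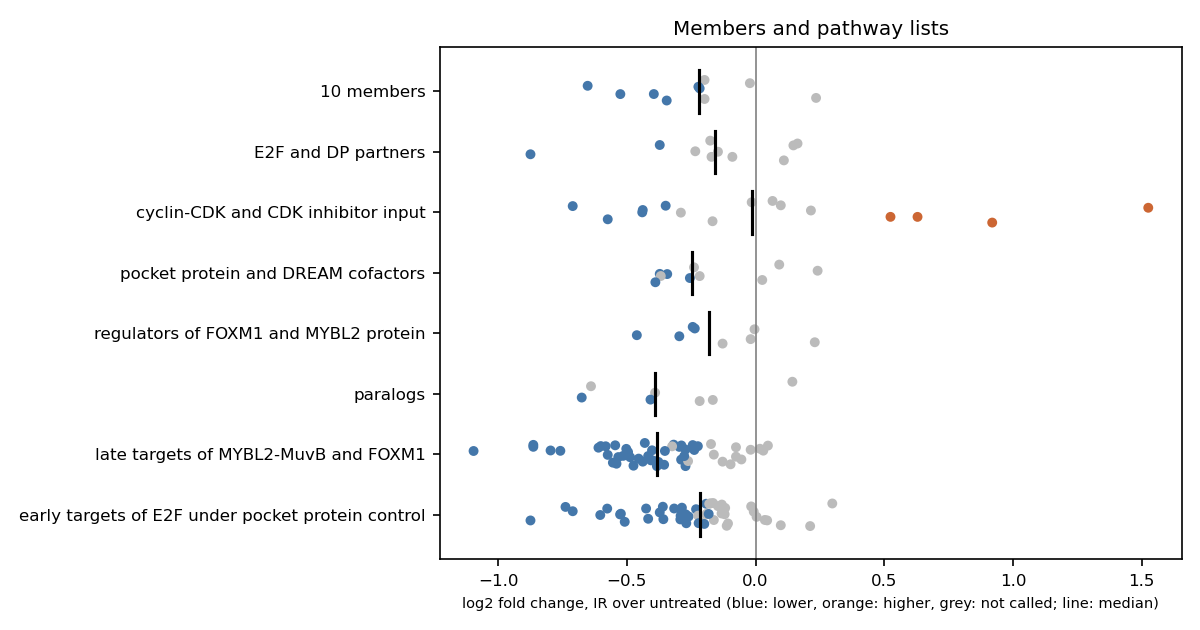
Log2 fold change of IR over untreated (horizontal axis) of the 10 genes and of each tested gene of 7 pathway lists (points, blue for lower, orange for higher and grey for not called), with the median of each list (black line). The late targets center on −0.39 and the early targets on −0.21, and the 4 higher genes are all among the cyclins, kinases and inhibitors.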

How the data were processed

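The 6 libraries were grouped as untreated or IR by the labels, which name poly(A)-selected RNA where the methods name a total RNA kit. Adaptors were trimmed with fastp and reads assigned by the authors with kallisto (version not given in the sources used here) to GENCODE release 37 of GRCh38. They deposited estimated counts with no normalization, and TPM values, which the authors had scaled for effective length and depth. Effective length exceeds length for 28.2% of transcripts in untreated replicate 1, so the length offset and TPM may carry more than length.

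Identifiers were looked up in GENCODE release 44 (2460 of 161171 transcripts, with 1.54% to 1.80% of counts, had no match and were left out), summed per gene and rounded. Filtering used filterByExpr, scaling TMM, and testing glmQLFTest (edgeR 4.0.16, limma 3.58.1, R 4.3.3) with Benjamini–Hochberg adjustment at 0.05. Transcript usage was tested by diffSpliceDGE. A standard error is the size of the log2 fold change divided by the root of F. The scripts were tested on simulated data. All pairs of replicates differed by more than sampling noise (chi-square per gene of 3.46 to 9.22 for pairs without IR replicate 3, and of 29.1 and 32.3 for the pairs with it). Depth limits the precision, and counting error is smallest in IR replicate 3, whose file carries a mark that could stand for a repeat.

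The members and lists were chosen with earlier results of these data known. Named were all members, every FOXM1 transcript, the leading transcript of other members, CDKN1A, CDKN2A and, for each list, the 3 called genes of lowest P and up to 3 called against its majority. Outside this rule, E2F4, CCNB1, CDC20, BIRC5, UBE2C, CDKN1C, CDK6, CCNE2, CCNA2, CDKN1B, CDKN2C, SUV39H1 and MELK were named after their values were seen. Alternatives were the filter on low counts, the size factors and Wald test of DESeq2 1.42.0, a likelihood ratio test, a replicate block, GC trend removal, the length offset, the pseudocount and leaving out each library. The sequence and place of another FOXM1 exon are not reported here.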

Additional observations from a re-analysis of the deposited data

How the results depend on the processing

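RBL1 and LIN54 were called lower in all 15 alternatives, and the direction of the 8 members lower in every IR library did not change in any of them. The 6 called members became 2 with the length offset and 3 to 7 with each library left out, 3 of them without untreated replicate 1 or 2. The 4307 called genes became 1712 with the length offset and 2582 to 4398 with each library left out. LIN37 turned to −0.024 with the GC trend removed and to −0.033 with a replicate block as well, and LIN52 to 0.079 and 0.078, neither called. Usage of FOXM1 was not called with at least 10 counts in every library (adjusted P = 0.874 by edgeR) or without FOXM1-202 (1.00), lay between 9.25e-09 and 2.86e-07 with each library left out, and was called in the other alternatives. That call rests on FOXM1-202, which passed the filter only through the IR libraries. The FOXM1 transcripts called in level, 0 in all edgeR fits, were 1 with the DESeq2 Wald test. Leaving out FOXM1-202, joining FOXM1-203 with FOXM1-210 and the Wald test on transcripts were chosen after seeing the data. Replicate numbers are shared by the groups, but same-numbered samples did not deviate together (correlations of −0.02, 0.01 and −0.05, with 1 of 6 samples closest to its own number). With the replicate block 4 members and 3351 genes were called, FOXM1 (adjusted P = 0.0804 by edgeR) and MYBL2 (0.0817) not among them, and usage of FOXM1 had an adjusted P of 1.13e-06. With block and GC removal together 4 members were called. The median over all tested genes moved by less than 0.1 on the log2 scale under every scaling. The cause of these changes was not tested. LIN37, with 166 counts in its lowest library, has the widest interval of the members.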
